A study of Mus musculus with 6 samples.

Results

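DNA replication and mitosis genes were examined in knee joint cartilage of mice at postnatal day 6 (P6). The 40 genes were chosen by name, 22 with roles in S phase and 18 with roles in G2 and mitosis (G2/M), from the 55487 genes of the deposited count table. All 40 passed the filter on low counts, which left 17175 genes for testing. The study asked what haemoglobin made by chondrocytes does in cartilage, and it sequenced 3 wild-type (WT) libraries and 3 libraries labelled as having *Hbb* conditionally knocked out in chondrocytes (*Hbb*-cKO). In the study, the name *Hbb*-cKO stands for *Hbb* F/F mice with *Col2a1-Cre* ERT2, a Cre that tamoxifen activates in cells using the *Col2a1* promoter, on a floxed allele spanning *Hbb-bs* and *Hbb-bt*. The labels call the controls wildtype. The sources used here do not say whether the sequenced controls carried floxed alleles or Cre or received tamoxifen, nor how many mice went into a library. The libraries were made from poly(A) RNA of whole cartilaginous tissue, so that a difference in the number of cells of a type and a difference in RNA per cell cannot be told apart.

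Cells copy their DNA once per cycle. In G1, ORC, CDC6 and CDT1 load the MCM2-7 ring onto origins, and in S phase CDC45 and GINS turn it into an active helicase that runs ahead of the polymerases and their sliding clamp PCNA. The S phase genes are largely E2F targets, released from retinoblastoma-family repression in late G1, whereas the G2/M genes are switched on later through B-MYB, FOXM1 and the MuvB core, and are held down in resting cells by the DREAM complex. In the growth plate, cycling cells are mainly the flat chondrocytes of the columns, which stop dividing before they enlarge.

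The WT libraries held 16544800 to 17475496 counts each and the *Hbb*-cKO libraries 17405688 to 20969914. Levels are given as CPM, a gene's count relative to the size of its library, corrected with TMM factors, with the mean ± s.e.m. of 3 libraries where a group mean is printed, and differences as the log2 fold change of *Hbb*-cKO over WT in edgeR. The targeted genes were not absent from the *Hbb*-cKO tissue. *Hbb-bs*, which can share reads with *Hbb-bt*, was at 2848 to 6394 CPM in WT and 1606 to 2257 CPM in *Hbb*-cKO, and *Hbb-bt* at 4064 to 10417 and 2589 to 3187 CPM, without overlap (edgeR quasi-likelihood test, Benjamini-Hochberg adjusted p = 0.218 and 0.241). DESeq2 called both lower, with adjusted p of 0.00165 and 0.00244. *Hba-a1*, which was not targeted, was likewise at 5573 to 16920 CPM in WT and 3968 to 5434 CPM in *Hbb*-cKO (DESeq2 adjusted p = 0.0141), and the red cell gene *Alas2* at 181 to 480 and 94.96 to 110 CPM. Of the 9 tested genes of the erythroid precursor list, which holds *Alas2*, 6 had a positive log2 fold change and 3 a negative one (median 0.29). In the globin and *Alas2* values, loss of *Hbb* in chondrocytes and less red cell RNA cannot be told apart. *Xist* and Y-linked counts differed within and between the groups. WT 1 and WT 2 had no Y-linked count, *Hbb*-cKO 2 had 6 *Xist* counts and 2907 Y-linked counts, and WT 3, *Hbb*-cKO 1 and *Hbb*-cKO 3 had both, with 2725, 5052 and 8079 *Xist* and 2109, 1010 and 1242 Y-linked counts. Y-linked counts were thus present in 1 of 3 WT and all 3 *Hbb*-cKO libraries, and their part in the results was examined with a covariate alone.

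The replication and mitosis genes had higher levels in *Hbb*-cKO almost throughout, by a modest amount, with a larger median in the G2/M set than in the S phase set. The difference between the sets was not tested. Of the 40 genes, 39 had a positive log2 fold change, against 47.5% of all genes tested. The median log2 fold change was 0.35 for the S phase set and 0.66 for the G2/M set, and -0.014 for all genes tested. The 3 *Hbb*-cKO libraries lay above all 3 WT libraries for 12 of 22 S phase genes and 17 of 18 G2/M genes, where 8.70% of all genes did so. In edgeR's quasi-likelihood test, adjusted by Benjamini-Hochberg over all genes, none of the 40 reached the threshold of 0.05, a call that only 0.0349% of genes reached in this direction. At an unadjusted p under 0.05, 10 S phase genes and 17 G2/M genes were higher in *Hbb*-cKO and none was lower. Without *Hbb*-cKO 3 these counts were 6 and 14. The shares for all genes were 4.89% higher and 5.22% lower. DESeq2 called 1 S phase gene and 11 G2/M genes higher, where it called 0.746% of all genes.

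**Figure D1:**
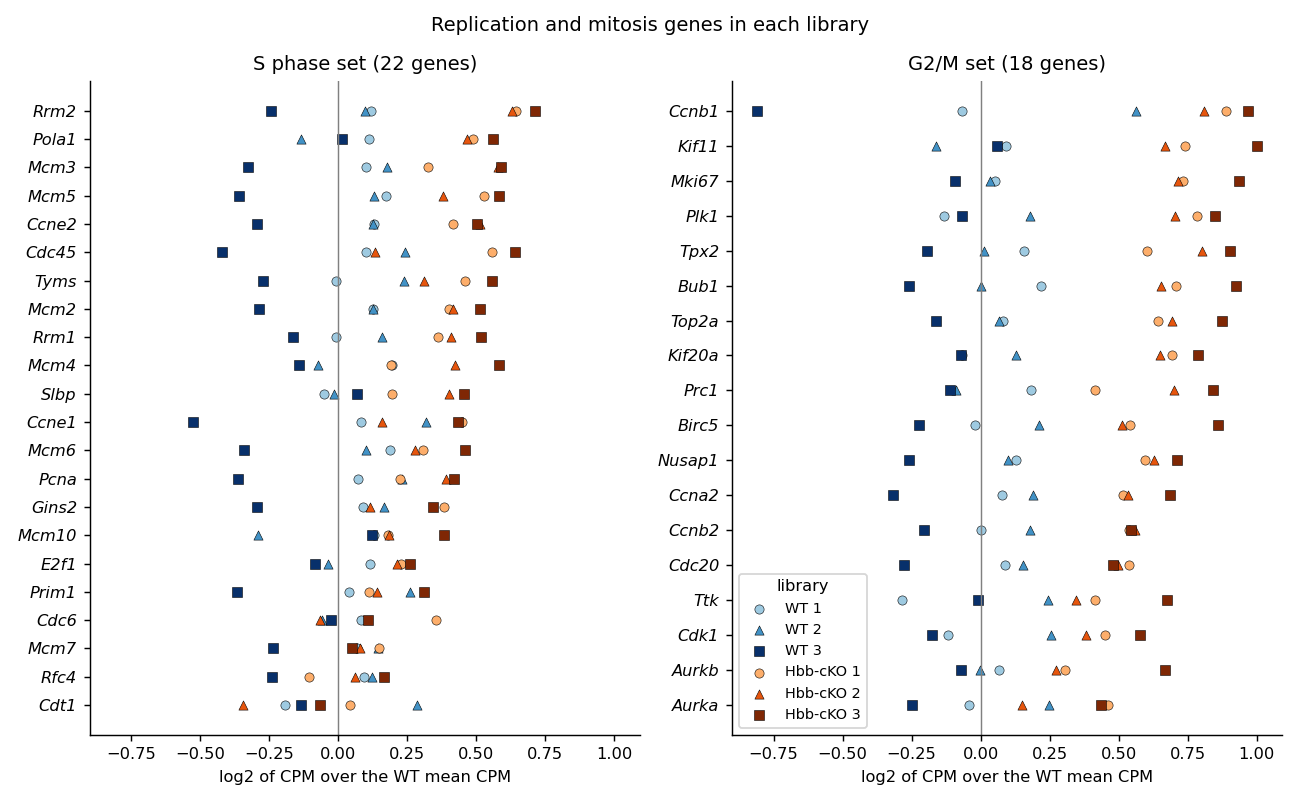
Level of each of the 40 genes in each library as the log2 of its CPM over the mean CPM of the 3 WT libraries, with the S phase set on the left and the G2/M set on the right, ordered by fold change. Blue symbols are WT libraries and orange symbols *Hbb*-cKO libraries. In the G2/M set the groups overlap for *Aurka* alone, and WT 3 is the leftmost symbol for most genes.

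Summed over the set, the S phase genes were at 623, 642 and 492 CPM in WT 1 to 3 and 730, 729 and 790 CPM in *Hbb*-cKO 1 to 3. The G2/M genes were at 457, 478 and 393 CPM in WT and 674, 676 and 766 CPM in *Hbb*-cKO. For both sums, every *Hbb*-cKO library was above every WT library. The ratio of the G2/M sum to the S phase sum was 0.733, 0.745 and 0.799 in WT and 0.924, 0.927 and 0.969 in *Hbb*-cKO, a description for which no test was made. Single libraries stood out within the groups. WT 3 had the lowest level of all 6 libraries for 32 of the 40 genes, and *Hbb*-cKO 3 the highest for 31. Of the S phase genes, 17, 14 and 20 were above all WT libraries in *Hbb*-cKO 1, 2 and 3, and of the G2/M genes 18, 17 and 18.

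The promoters of 8 genes are shown first, because the sets differ in which transcription factor letters they carry. They were chosen among the genes with the smallest p values in each set, with *Mcm6* added for its E2F-like letters. Of the 6 S phase genes with the smallest p, *Rrm1*, *Mcm2* and *Mcm3* also had promoter entries and are not shown. The printed stretches therefore do not stand for the whole set. Each stretch holds the 160 bases before the transcription start in the RefSeq promoter table (GRCm38.p6), read 5′ to 3′ on the strand of the gene. Capitals mark 3 kinds of letters, each searched on both strands: the CCAAT box, spelled CCAAT, a CHR-like run as bound by MuvB complexes, spelled TTTGAA or, without a strand of its own, TTTAAA, and an E2F-like run. The E2F-like runs were TTTGGCGC, TTTCCCGC, TTTGCCGC and TTTCGCGC. The S phase genes are *Mcm5* (chr8:75109349-75109508, plus), *Mcm6* (chr1:128359706-128359865, minus), *Pola1* (chrX:93632156-93632315, minus) and *Rrm2* (chr12:24708094-24708253, plus).
Mcm5: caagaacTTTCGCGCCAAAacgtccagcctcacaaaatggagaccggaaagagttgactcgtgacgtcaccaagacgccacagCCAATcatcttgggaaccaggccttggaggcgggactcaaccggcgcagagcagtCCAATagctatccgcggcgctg
Mcm6: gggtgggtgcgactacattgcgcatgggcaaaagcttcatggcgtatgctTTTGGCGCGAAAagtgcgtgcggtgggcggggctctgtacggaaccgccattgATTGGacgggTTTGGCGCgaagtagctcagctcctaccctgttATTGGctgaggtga
Pola1: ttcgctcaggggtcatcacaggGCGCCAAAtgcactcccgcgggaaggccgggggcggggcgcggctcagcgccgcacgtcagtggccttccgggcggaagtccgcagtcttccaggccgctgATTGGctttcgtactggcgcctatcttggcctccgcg
Rrm2: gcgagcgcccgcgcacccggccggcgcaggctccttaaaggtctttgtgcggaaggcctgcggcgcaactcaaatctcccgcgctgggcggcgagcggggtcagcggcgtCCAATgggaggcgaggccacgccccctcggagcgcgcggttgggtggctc
The G2/M genes are *Mki67* (chr7:135716380-135716539, minus), *Top2a* (chr11:99024190-99024349, minus), *Kif11* (chr19:37376222-37376381, plus) and *Plk1* (chr7:122159275-122159434, plus).
Mki67: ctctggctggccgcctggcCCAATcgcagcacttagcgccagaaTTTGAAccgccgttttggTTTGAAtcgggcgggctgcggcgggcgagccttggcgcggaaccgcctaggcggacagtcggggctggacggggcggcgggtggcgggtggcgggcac
Top2a: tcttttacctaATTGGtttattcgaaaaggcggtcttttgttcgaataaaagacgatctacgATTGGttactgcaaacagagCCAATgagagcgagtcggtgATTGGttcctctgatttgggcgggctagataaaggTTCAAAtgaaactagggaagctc
Kif11: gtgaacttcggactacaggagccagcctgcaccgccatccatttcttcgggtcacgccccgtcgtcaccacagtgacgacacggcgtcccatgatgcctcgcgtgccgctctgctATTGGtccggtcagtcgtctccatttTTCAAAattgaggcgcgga
Plk1: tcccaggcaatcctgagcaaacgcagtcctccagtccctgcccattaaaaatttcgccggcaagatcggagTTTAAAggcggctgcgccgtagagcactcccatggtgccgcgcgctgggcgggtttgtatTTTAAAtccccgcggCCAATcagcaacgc
In *Mcm5* the runs TTTCGCGC and GCGCCAAA overlap by 4 letters, as do TTTGGCGC and GCGCGAAA in *Mcm6*. In *Top2a* 4 CCAAT boxes precede the run TTCAAA, which begins 23 bases before the start, and in *Kif11* the run TTCAAA begins 19 bases before the start, after a CCAAT box at 45. *Plk1* has TTTAAA at 89 and again at 29 bases before the start.

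Promoter windows from 250 bases before to 50 bases after the start were found for 33 of the 40 genes, as 35 windows. No entry was used for *Mcm4*, *Gins2*, *Ccne2*, *Ccna2*, *Aurkb*, *Kif20a* and *Tpx2*. The CHR-like run was present in 13 of 15 G2/M windows (86.7%) and 5 of 20 S phase windows (25%), against 27.6% of all 32851 windows in the table. Within the 100 bases before the start, it was present in 8 of 15 G2/M windows (53.3%), 2 of 20 S phase windows (10%) and 9.71% of all windows. The E2F-like runs had the opposite distribution, with 7 of 20 S phase windows (35.0%), 1 of 15 G2/M windows (6.67%, *Cdk1*) and 2.26% of all. In the nearer window of 100 bases before the start, only 1 of 20 S phase windows (5%), 0 of 15 G2/M windows and 0.846% of all held one. The CCAAT box was common in both sets, in 14 S phase windows (70.0%) and 13 G2/M windows (86.7%), and in 37.4% of all. Genes are grouped in these sets by their known timing, so the letters describe the sets and no site or binding was measured. As a description without a test, S phase genes with and without each run had median log2 fold changes of 0.35 (7 genes) and 0.35 (12) for the E2F-like run, 0.43 (13) and 0.19 (6) for the CCAAT box, and 0.46 (5) and 0.30 (14) for the CHR-like run. In the G2/M set, genes with and without a CHR-like run in the whole window had medians of 0.66 (12 genes) and 0.71 (2). For the nearer window the order was the other way, at 0.76 (8 genes) and 0.60 (6).

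Among the S phase genes, the subunits of the helicase ring are described first. *Mcm2* was at 42.2, 42.2 and 31.7 CPM in WT and 51.1, 51.6 and 55.3 CPM in *Hbb*-cKO (log2 fold change 0.44 ± 0.14 (SE), edgeR adjusted p = 0.323). *Mcm3* was at 33.2, 35.0 and 24.7 CPM in WT and 38.8, 46.3 and 46.6 CPM in *Hbb*-cKO (0.50 ± 0.16, adjusted p = 0.329). *Mcm5* was at 41.4, 40.3 and 28.7 CPM in WT and 53.02, 47.8 and 55.1 CPM in *Hbb*-cKO (0.50 ± 0.16, adjusted p = 0.331). For these 3 subunits the groups did not overlap, and WT 3 was the lowest of all 6 libraries. *Mcm4* and *Mcm6* had log2 fold changes of 0.41 and 0.35, and *Mcm6* had 0.21 without WT 3. *Mcm7* stood apart within the ring, at 59.9, 63.0 and 48.4 CPM in WT and 63.3, 60.3 and 59.0 CPM in *Hbb*-cKO, with a log2 fold change of 0.092 ± 0.13 and overlapping groups. Its log2 fold change was -0.013 without WT 3 and 0.18 without WT 2. *Mcm7* shares 7.25% of its exon bases with *Ap4m1* on the other strand, and the sources used here give no strand setting for the counting.

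Levels of the 6 subunits, which sit in the ring in equal number, can be compared with each other per length. In WT their mean levels, in CPM per kb of the union of their exons, were 5.56 ± 0.501 for *Mcm2*, 7.74 ± 0.569 for *Mcm4*, 8.25 ± 0.848 for *Mcm3*, 9.21 ± 1.02 for *Mcm5*, 12.9 ± 1.00 for *Mcm7* and 13.9 ± 1.49 for *Mcm6*. Since the subunits were measured in the same libraries, neighbours were also compared within each. *Mcm5* was above *Mcm4* in all 6 libraries and above *Mcm3* in 5, *Mcm3* was above *Mcm4* in 4, and *Mcm6* was above *Mcm7* in 5. In *Hbb*-cKO the levels were 7.57, 10.3, 11.7, 13.0, 13.8 and 17.7 CPM per kb in the same order. The order depended on the length used. Per kb of the longest coding transcript, *Mcm7* was the highest in WT at 19.3 CPM per kb, and *Mcm2* was at 11.5 CPM per kb, above *Mcm4* at 7.74, *Mcm3* at 10.2 and *Mcm5* at 10.9.

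**Figure D2:**
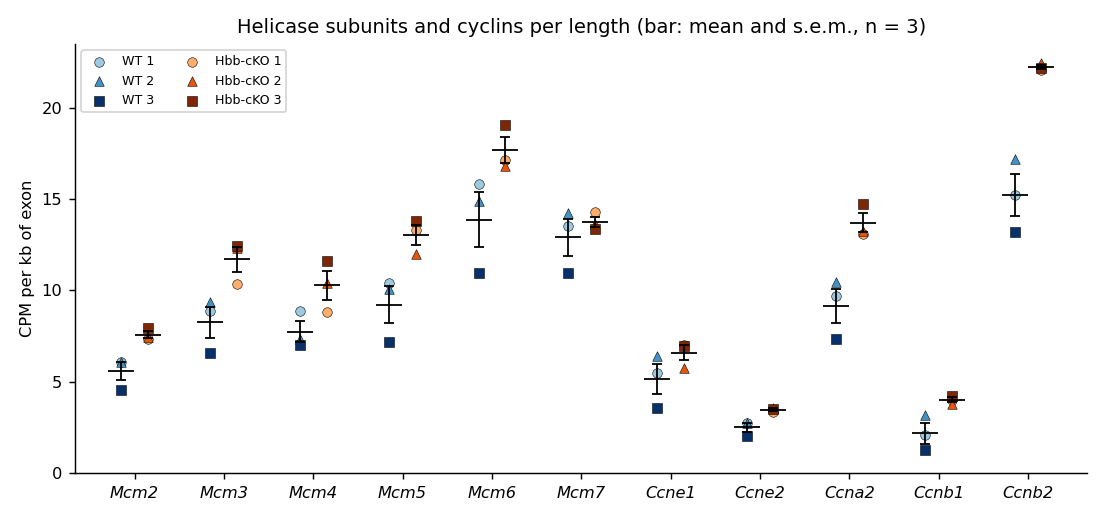
Levels of the 6 helicase subunits and 5 cyclins in CPM per kb of exon, with 1 symbol per library and bars for the mean and s.e.m. of 3 libraries. *Mcm7* has overlapping levels in both groups, and *Ccnb1* is lower than *Ccnb2* in every library.

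The genes that load the ring and switch it on were the most mixed group. *Cdt1*, the loading factor that is destroyed as S phase begins, was at 13.4, 18.6 and 13.9 CPM in WT and 15.7, 12.0 and 14.6 CPM in *Hbb*-cKO. It alone of the 40 genes had a negative log2 fold change, -0.12 ± 0.18 (edgeR adjusted p = 0.886). The groups overlapped, with the highest value in WT 2 and the lowest in *Hbb*-cKO 2. Without WT 2 its log2 fold change was 0.064. Its partner *Cdc6*, an ATPase of the loading reaction, had a log2 fold change of 0.14, with 0.030 without *Hbb*-cKO 1 and 0.24 without *Hbb*-cKO 2. *Cdc45* and *Gins2*, which complete the active helicase, had 0.46 and 0.29, and *Mcm10*, which takes part in its activation, had 0.25. Without WT 3, *Cdc45* had 0.29 and *Gins2* 0.16, and without WT 2 *Mcm10* had 0.14. None of these 5 passed an unadjusted p of 0.05. The exons of *Gins2* share 67.3% of their bases with *Gse1* on the other strand, so that its counts are uncertain.

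At the fork, *Pola1*, the catalytic subunit of the polymerase that starts each strand, was at 11.3, 9.49 and 10.5 CPM in WT and 14.6, 14.4 and 15.3 CPM in *Hbb*-cKO (0.50 ± 0.14, edgeR adjusted p = 0.281). The groups were clearly apart, and the spread within each was small. *Pcna*, the sliding clamp, was at 67.4, 75.2 and 49.9 CPM in WT and 75.0, 84.1 and 85.7 CPM in *Hbb*-cKO (0.35 ± 0.16, edgeR adjusted p = 0.527). *Hbb*-cKO 1 lay just under WT 2, so the groups overlapped, and without WT 3 the log2 fold change was 0.20. The pseudogene *Pcna-ps2* took 20.5% to 22.3% of the sum of both genes' counts in every library. *Prim1*, the primase subunit, had 0.19, with 0.038 without WT 3 and 0.35 without WT 2. *Rfc4*, part of the clamp loader, was at 10.9, 11.1 and 8.65 CPM in WT and 9.49, 10.7 and 11.5 CPM in *Hbb*-cKO. This gave 0.045 ± 0.16 (edgeR adjusted p = 0.957, the largest of the 40), with overlapping groups.

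The enzymes that supply deoxynucleotides were higher in *Hbb*-cKO without overlap for all 3 genes. *Rrm2*, the regulated small subunit of ribonucleotide reductase, was at 28.1, 27.7 and 21.8 CPM in WT and 40.3, 39.9 and 42.4 CPM in *Hbb*-cKO. Its log2 fold change of 0.66 ± 0.13 was the largest of the S phase set (edgeR adjusted p = 0.156), and it was the S phase gene that DESeq2 called, with an adjusted p of 0.00611. *Rrm1*, the large subunit, was at 55.8, 62.5 and 50.02 CPM in WT and 72.1, 74.4 and 80.3 CPM in *Hbb*-cKO (0.43 ± 0.12, edgeR adjusted p = 0.289). The ratio of *Rrm2* to *Rrm1* CPM was 0.504, 0.443 and 0.436 in WT and 0.560, 0.537 and 0.528 in *Hbb*-cKO. *Tyms*, which makes thymidylate, had 0.45. Of the remaining S phase genes, *Ccne2* and *Ccne1*, the cyclins that drive entry into S phase, had 0.48 and 0.35, *Slbp*, which binds histone mRNA, had 0.36, and *E2f1*, the transcription factor itself, had 0.23. *Ccne1* had 0.15 without WT 3 and 0.56 without WT 2. In this last group *Ccne2* and *Slbp* passed an unadjusted p of 0.05. *Ccne2*, *Rfc4*, *Ccna2* and *Prc1* share 17.4%, 12.7%, 12.5% and 11.1% of their exon bases with genes on the other strand.

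**Figure D3:**
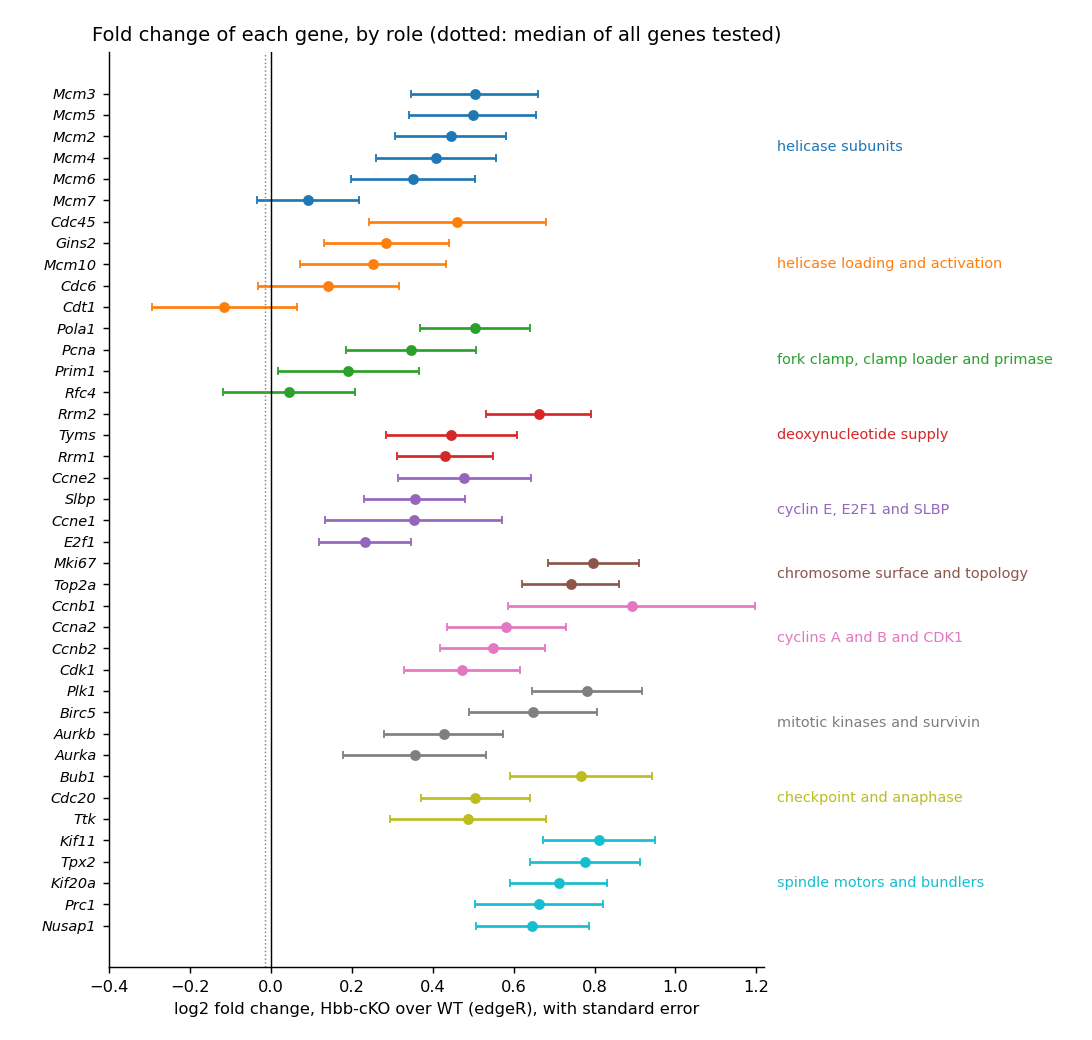
Log2 fold change of *Hbb*-cKO over WT from edgeR for each of the 40 genes, with its standard error as the bar, grouped and coloured by role. The dotted line at -0.014 is the median of all 17175 genes tested. *Cdt1* lies left of 0, and every gene of the G2/M set, from *Mki67* downwards, lies at 0.36 or above.

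In the G2/M set all 18 log2 fold changes were positive, from 0.36 to 0.89. *Mki67*, which coats mitotic chromosomes and is the common marker of cycling cells, was at 76.6, 75.6 and 69.2 CPM in WT and 123, 121 and 141 CPM in *Hbb*-cKO. Its log2 fold change of 0.80 ± 0.11 had the smallest adjusted p of all 40 genes, 0.0720 in edgeR's quasi-likelihood test. *Top2a*, the topoisomerase that untangles sister DNA, was at 69.8, 69.1 and 59.0 CPM in WT and 103, 107 and 121 CPM in *Hbb*-cKO (0.74 ± 0.12, edgeR adjusted p = 0.102). For both genes the groups were far apart compared with the spread within each.

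All 5 spindle genes were called by DESeq2, as were *Mki67* and *Top2a*. *Kif11*, the motor that pushes the spindle poles apart, was at 22.04, 18.5 and 21.6 CPM in WT and 34.6, 32.9 and 41.5 CPM in *Hbb*-cKO (0.81 ± 0.14, edgeR adjusted p = 0.112). *Tpx2*, which nucleates spindle microtubules and activates Aurora A, was at 29.6, 26.8 and 23.2 CPM in WT and 40.3, 46.2 and 49.6 CPM in *Hbb*-cKO (0.78 ± 0.14, adjusted p = 0.112). *Kif20a*, a kinesin of the midzone needed for cytokinesis, was at 17.8, 20.4 and 17.8 CPM in WT and 30.1, 29.3 and 32.2 CPM in *Hbb*-cKO (0.71 ± 0.12, adjusted p = 0.112). All 3 had groups well apart, though *Kif20a* shares 29.3% of its exon bases with *Cdc23* on the other strand. *Prc1* and *Nusap1*, which bundle microtubules, had 0.66 and 0.65.

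Among the mitotic kinases, *Plk1*, which acts from entry into mitosis to cytokinesis, was at 11.1, 13.8 and 11.7 CPM in WT and 21.03, 19.9 and 21.99 CPM in *Hbb*-cKO (0.78 ± 0.14, edgeR adjusted p = 0.112). *Aurka*, at the spindle poles, was at 10.2, 12.5 and 8.83 CPM in WT and 14.4, 11.6 and 14.2 CPM in *Hbb*-cKO (0.36 ± 0.18, edgeR adjusted p = 0.550), and it was the G2/M gene with overlapping groups, *Hbb*-cKO 2 being under WT 2. *Aurkb*, of the chromosomal passenger complex, had 0.43, and *Birc5*, which encodes survivin of the same complex, had 0.65. Of the checkpoint genes, *Bub1* had 0.77, *Cdc20*, the activator of the anaphase-promoting complex, had 0.51, and *Ttk*, the kinase at the top of the checkpoint, was at 5.15, 7.42 and 6.23 CPM in WT and 8.35, 7.97 and 10.004 CPM in *Hbb*-cKO (0.49 ± 0.19, edgeR adjusted p = 0.452).

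The cyclins and CDK1, the engine of mitotic entry, had log2 fold changes of 0.89 for *Ccnb1*, 0.58 for *Ccna2*, 0.55 for *Ccnb2* and 0.47 for *Cdk1*. *Ccnb1*, whose library values are given because of their spread, was at 8.68, 13.4 and 5.19 CPM in WT and 16.9, 15.9 and 17.8 CPM in *Hbb*-cKO. It had the largest log2 fold change of the 40 genes and also the largest standard error, 0.31, and its adjusted p was 0.372 in edgeR. Without WT 3 it was 0.61, below *Kif11* and *Mki67* in the same fit at 0.84 and 0.75. The pseudogene *Ccnb1-ps* took 43.0% of the summed counts in WT 3, against 22.2% to 27.0% in the other 5 libraries. With the counts of both summed, the log2 fold change was 0.85 (edgeR adjusted p = 0.278). Per kb of exon, *Ccnb1* was the lower B-type cyclin, at 2.16 ± 0.567 CPM per kb in WT and 4.004 ± 0.130 in *Hbb*-cKO, while *Ccnb2* was at 15.2 ± 1.16 and 22.2 ± 0.109 CPM per kb. *Ccna2* was between them at 9.15 ± 0.929 and 13.7 ± 0.521 CPM per kb.

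Other genes of the cell cycle were read in 8 lists taken from textbook knowledge, with earlier results of these data known. Their direction is therefore no independent evidence, and no gene of these lists passed the adjusted threshold in edgeR. Over all genes tested, 47.5% were positive, and 4.89% were higher and 5.22% lower at an unadjusted p under 0.05. Of 26 other spindle and cytokinesis genes, all 26 had a positive log2 fold change, with a median of 0.62, 23 passed an unadjusted p of 0.05 and DESeq2 called 10. *Incenp*, of the chromosomal passenger complex, was at 23.7 to 25.3 CPM in WT and 36.8 to 44.1 CPM in *Hbb*-cKO (0.72 ± 0.12, edgeR adjusted p = 0.102), and *Kif18b*, a motor at microtubule ends, at 7.66 to 8.14 and 13.0 to 13.8 CPM (0.75 ± 0.13, adjusted p = 0.116). Of 27 other checkpoint, cyclosome and condensin genes, 26 were positive, with a median of 0.40, 14 passed an unadjusted p of 0.05 in this direction and DESeq2 called 3. The checkpoint gene *Bub1b* had 0.62 and the condensin gene *Smc2* 0.74 (both adjusted p = 0.170). The exception was *Pttg1*, which encodes securin, at 14.6, 22.4 and 16.6 CPM in WT and 13.4, 9.22 and 14.5 CPM in *Hbb*-cKO. Its log2 fold change was -0.53 (edgeR adjusted p = 0.491), past an unadjusted p of 0.05, and it was singled out after its values were seen.

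By their medians, the replication lists lay closer to 0. Over all genes tested, 47.5% were positive and 4.89% passed an unadjusted p of 0.05 as higher in *Hbb*-cKO. Of 20 other origin licensing and firing genes, 16 were positive with a median of 0.18, and 3 passed an unadjusted p of 0.05. *Dbf4*, the activator of the CDC7 kinase, had 0.47 and *Mcm8* 0.65. Of 29 other fork genes, 25 were positive with a median of 0.17, and 4 passed an unadjusted p, among them *Lig1*, which joins Okazaki fragments, with 0.54 and *Clspn*, a checkpoint mediator at the fork, with 0.60. Of 14 nucleotide supply genes, 10 were positive with a median of 0.096, and *Tk1*, the S phase thymidine kinase, was the 1 gene that passed, with 0.52. *Nme1* followed with 0.27. No gene of these 3 lists was called by edgeR or DESeq2 after adjustment.

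The regulators of the cycle showed no single direction. The shares of all genes tested were again 47.5% positive, and 4.89% higher and 5.22% lower at an unadjusted p under 0.05. Of 18 G1 cyclins, CDKs and retinoblastoma-family genes, 12 were positive with a median of 0.12, and 3 passed an unadjusted p of 0.05. The atypical repressor *E2f8* had 0.68 and *Rbl1*, which encodes p107, had 0.49. Of 8 mitotic transcription factors and DREAM subunits, 7 were positive with a median of 0.23 and none passed an unadjusted p, *Lin9* with 0.40 and *Rbbp4* with 0.14 having the smallest. Of 14 CDK inhibitors and p53 targets, 13 were tested, with a median of -0.10, and 2 passed an unadjusted p in each direction. *Cdkn2c*, which encodes the CDK4/6 inhibitor p18, was at 43.5, 45.8 and 31.7 CPM in WT and 58.4, 59.7 and 70.1 CPM in *Hbb*-cKO (0.64 ± 0.16, edgeR adjusted p = 0.256). *Cdkn1a*, which encodes the CDK inhibitor p21, was at 167, 147 and 237 CPM in WT and 132, 129 and 121 CPM in *Hbb*-cKO (-0.53 ± 0.18, adjusted p = 0.368). For both genes the groups did not overlap, and WT 3, the library with the lowest level of most replication and mitosis genes, had the lowest *Cdkn2c* and the highest *Cdkn1a*.

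**Figure D4:**
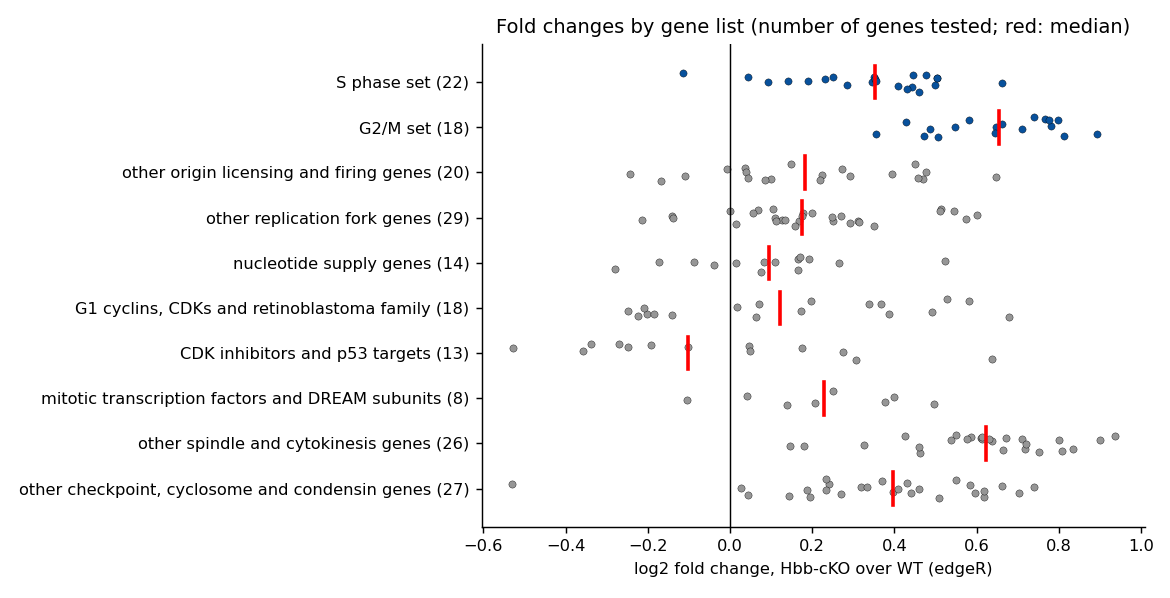
Log2 fold change from edgeR of every tested gene of the S phase and G2/M sets (blue) and of 8 other cell cycle lists (grey), 1 point per gene, with a red line at the median of each list and the number of genes tested in brackets. The G2/M set (0.66) and the other spindle genes (0.62) have the highest medians, and CDK inhibitors and p53 targets lie around 0.

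The tissue held more than cartilage cells. The counts for each cell type list stand beside the shares of all genes tested. These were 47.5% positive, and 4.89% higher and 5.22% lower at an unadjusted p under 0.05. The chondrocyte list was high in every library, with *Col2a1* at 11307 to 38294 CPM, and none of its 10 genes passed an unadjusted p of 0.05 (median 0.057). Its summed level was 35123 to 45433 CPM in WT and 18309, 60058 and 44020 CPM in *Hbb*-cKO 1 to 3. The part of chondrocytes in the cell cycle values was not tested. Of 7 columnar and prehypertrophic genes, 5 were positive, with a median of 0.23, 1 passed an unadjusted p, and the summed levels of 1851 to 2533 and 2056 to 2457 CPM overlapped. *Col10a1* was the highest of them, at 539 to 1502 CPM in WT and 839 to 1325 CPM in *Hbb*-cKO.

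Genes of other cells moved with the groups in part. All 10 neutrophil genes were positive with a median of 1.60 and 8 passed an unadjusted p, but the summed level was 39.0, 26.3 and 19.0 CPM in WT and 127, 28.2 and 108 CPM in *Hbb*-cKO. The neutrophil sum of *Hbb*-cKO 2 was thus within the WT range, with *Ngp* at 5.06 CPM against 2.37 to 4.85 in WT and *Mpo* at 0.952 against 1.09 to 2.28. The S phase and G2/M sums of the same library were above all WT libraries. It was also the lowest *Hbb*-cKO library for 11 S phase and 11 G2/M genes. This is 1 library, and a part of neutrophils in the cell cycle values was not tested. With *Hbb*-cKO 2 as the only knockout library, the median log2 fold change was 0.30 for the S phase set and 0.64 for the G2/M set. *S100a9* was the highest of the list, at 5.54 to 11.4 CPM in WT and 31.4, 7.12 and 30.8 CPM in *Hbb*-cKO. Of 9 erythroid genes tested, 6 were positive, 1 passed an unadjusted p in each direction, the median was 0.29, and the summed level lay in separate ranges, 339 to 626 CPM in WT and 243 to 251 CPM in *Hbb*-cKO, led by *Alas2*. *Ahsp* was not analysed here.

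Skeletal muscle genes were at 30722 to 51308 CPM in WT, highest in WT 3, and at 26074 to 35098 CPM in *Hbb*-cKO, with *Acta1* the highest. Of 10, 8 were negative (median -0.37) and 3 passed an unadjusted p. All 8 endothelial genes were positive (median 0.21) and 3 passed, with *Pecam1* the highest at 155 to 185 and 182 to 205 CPM and summed levels of 560 to 678 CPM in WT and 713 to 821 CPM in *Hbb*-cKO. Of 10 macrophage and osteoclast genes, 5 were positive (median -0.010) and 1 passed, with *Mmp9* the highest at 390 to 540 and 218 to 663 CPM, and their summed levels were 1480 to 1906 and 1065 to 2263 CPM. Of 6 osteoblast genes, 4 were positive (median 0.14) and none passed, with *Spp1* the highest at 380 to 787 and 192 to 560 CPM, and summed levels of 729 to 1209 and 570 to 1167 CPM. Of 10 B cell genes, 6 were tested, all positive (median 0.65) and none of which passed, with *Ebf1* at 38.8 to 43.8 and 42.0 to 43.6 CPM, summed levels of 42.9 to 51.7 and 47.6 to 57.5 CPM, and *Rag1* and *Dntt* at 0 in 2 and 3 libraries. No marker list had a gene past the adjusted threshold in edgeR, whereas DESeq2 called 2 neutrophil genes higher, *Ngp* and *Ltf*, and 1 erythroid gene lower, *Alas2*. The part of these cells in the cell cycle values was not tested.

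**Figure D5:**
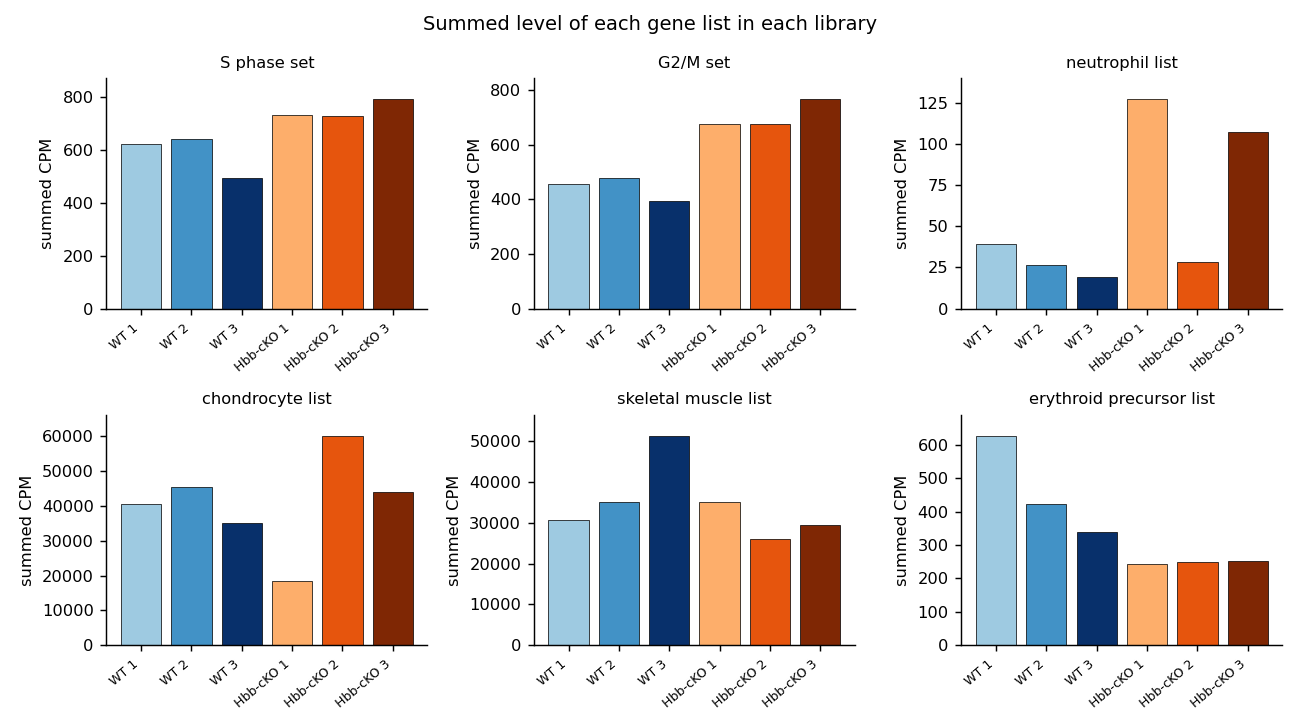
Summed CPM in each library, on axes from 0, of the S phase set, the G2/M set and 4 cell type lists, with 1 bar per library and no error bar. Both cell cycle sums are higher in all 3 *Hbb*-cKO bars. The neutrophil sum is high in *Hbb*-cKO 1 and 3 and at 28.2 CPM in *Hbb*-cKO 2. How the sums relate to each other was not tested.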

How the data were processed

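Counts per gene for 6 libraries were deposited in 1 table, as whole numbers with no normalization by the authors. Per the labels, poly(A) RNA was extracted with an RNeasy kit. Tools in the submitters' processing notes are HISAT2 2.1.0, fastp 0.19.5, CASAVA 1.8, and edgeR and StringTie with no version. Genome build, counting and strand settings were not given in the sources used here. Positions of 279 of 280 listed genes equalled GENCODE M21 on GRCm38, which supplied exon lengths and overlaps.

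The table lists 55487 genes, 31373 with a count. The edgeR filter by group (minimum count 10, minimum total 15) left 17175. Library sizes summed the tested genes, with TMM factors. The main test was edgeR 4.0.16 (R 4.3.3), a robust quasi-likelihood fit on 3 WT and 3 *Hbb*-cKO libraries without covariates, with Benjamini-Hochberg adjustment over all tested genes. CPM values used the same sizes without a prior count. DESeq2 1.42.0 was an alternative. The main edgeR fit, DESeq2 and the edgeR fit with a replicate block were tested on simulated data, and the other alternatives were not. Tables were handled in Python 3.11.15 with pandas 2.3.3.

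Genotype labels gave the groups. A caption of the study calls its RNA-seq samples of cartilage biologically independent, the labels do not say how many mice each library held, and p-values measure the spread between these libraries. In all 15 pairs of libraries the counts differed beyond sampling noise (chi-square 20.2 to 55.2 per gene). Libraries of the same replicate number showed no sign of pairing. Correlations of their deviations from the group means were -0.042, -0.12 and -0.023. With so few libraries, these values cannot show that no libraries were paired.

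The genes and the 8 pathway and 9 cell type lists were chosen with earlier results of these data known, so their direction is no independent evidence. Values in each library were given for the 6 genes of each set with the smallest p, the 2 with the largest, any with a negative log2 fold change or not passing the filter, and *Pcna*, *Mki67* and *Top2a*. For each pathway list the 2 genes with the smallest p were named, and for cell type lists the highest gene and markers at 0, in both with any gene past the adjusted threshold. Other genes were named, and *Mcm7*, *Ccnb1* and *Pttg1* given in each library, after their values were seen.

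Promoter sequences came from RefSeq (GRCm38.p6). The 15 alternatives were DESeq2, RLE factors, factors without globin and muscle genes, 2 filters, a replicate block, a Y-linked covariate, leaving out each library, leaving out *Hbb*-cKO 1 and 3, and, added after seeing the data, sums with pseudogenes. Lengths of the longest coding transcript were also added after seeing the data.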

Additional observations from a re-analysis of the deposited data

How the results depend on the processing

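Genes called over all genes numbered 18 with edgeR, 249 with DESeq2, 60 without the filter, 48 with the Y-linked covariate and 4 with the replicate block. They numbered 1 without *Hbb*-cKO 1 and 3 and 1 to 39 on leaving out 1 library: 1 without WT 1, 39 without WT 3, 6 without *Hbb*-cKO 2 and 2 without *Hbb*-cKO 3. The S phase genes past the adjusted threshold were 0, and 1 with DESeq2. The G2/M genes past it were 0, and 11 with DESeq2 and 3 without the filter. At an unadjusted p, the 10 S phase genes became 16 with the Y-linked covariate, 1 without *Hbb*-cKO 1 and 3, which leaves 1 knockout library assumed to vary like the others, and 6 to 14 on leaving out 1 library, with 6 without *Hbb*-cKO 3. The 17 G2/M genes became 9 without *Hbb*-cKO 1 and 3 and 14 to 18 on leaving out 1 library. With the replicate block they were 16, and the S phase genes 7. The medians of 0.35 and 0.66 became 0.57 and 0.82 with the Y-linked covariate. They ran from 0.30 to 0.44 and 0.58 to 0.73 on leaving out 1 library. WT 1 and WT 2 had no Y-linked count, unlike WT 3 and every *Hbb*-cKO library, so the covariate partly follows genotype. Values from that fit cannot be read as an adjustment for sex alone. The sign turned for *Cdt1* (0.032 with the Y-linked covariate, 0.064 without WT 2, -0.20 to 0.064 on leaving out 1 library), *Cdc6* (-0.062 without *Hbb*-cKO 1 and 3), *Rfc4* (-0.016 without *Hbb*-cKO 3, -0.061 to 0.12 on leaving out 1 library, the lowest without WT 3) and *Mcm7* (-0.013 without WT 3, -0.013 to 0.18 on leaving out 1 library). The other 36 genes kept a positive value in all 15 alternatives. The cause of these changes was not tested. With 3 libraries a group, a missed threshold does not show that levels were equal.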
